A study of Mus with 3 samples.

Results

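Surfactant is the film of phospholipid and protein that lines the alveoli, and the 10 genes described here make its proteins, assemble and store it, or supply its lipid. They are Sftpa1, Sftpb, Sftpc, Sftpd, Abca3, Napsa, Lamp3, Slc34a2, Lpcat1 and Scd1, chosen by symbol as 10 of the 27998 genes of the expression matrices, all of which were found. Whole lungs of female mice aged 6 to 12 weeks were dissociated and profiled by droplet single-cell RNA sequencing. The groups were DJ-1 knockout mice challenged with ovalbumin (DJ-1 KO OVA), wild-type mice challenged with ovalbumin (WT OVA) and wild-type mice given PBS (WT PBS). DJ-1 is a redox-sensitive protein encoded by Park7, and ovalbumin is an egg-white protein used to provoke allergic airway inflammation. Each group is 1 library pooled over 3 mice, so every difference below lacks a replicate check, no test was possible and no p-value is given. No PBS-challenged knockout library was analysed here, and the genetic background of the knockout is not given in the sources used here.

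Alveolar type 2 (AT2) cells are the main source of surfactant. They synthesise phosphatidylcholine with saturated fatty acids, pump it into lamellar bodies, which are lysosome-related storage organelles, and release it into the airspace. The hydrophobic surfactant proteins B (Sftpb) and C (Sftpc) help to spread the lipid film, and both are cut from larger precursors, in which the aspartic protease napsin A (Napsa) takes part. The hydrophilic proteins A (Sftpa1) and D (Sftpd) are collectins, secreted lectins that bind microbes and allergens. Abca3 carries phospholipid across the lamellar body membrane, Lamp3 is a glycoprotein of that membrane, and Slc34a2 takes up phosphate released as surfactant is recycled. Lpcat1 makes disaturated phosphatidylcholine, the main surface-active lipid, and Scd1 introduces a double bond into saturated fatty acids. Club cells, the secretory cells of the airways, are also known to make proteins A, B and D, whereas Sftpc is the usual marker of AT2 cells. Alveolar macrophages take up and degrade used surfactant.

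The libraries held 17339386 UMIs (unique molecules) over 4666 barcodes in DJ-1 KO OVA, 24438516 over 6406 in WT OVA and 26548669 over 4556 in WT PBS. DJ-1 KO OVA and WT PBS shared 372 barcodes, against 5 shared by DJ-1 KO OVA and WT OVA and 6 by WT OVA and WT PBS, and the lower-UMI cell of each of the 372 pairs was left out (66 cells of DJ-1 KO OVA and 306 of WT PBS). Filtering kept 4368, 5930 and 3840 cells, whose median depth was 1637.5, 2060.5 and 4079.5 UMIs. Cells were clustered without the 10 genes and named from marker genes. The names mean cells like the named type. Park7 stood at 22.5 CPM in Retnla-high and 18.7 CPM in Retnla-low AT2 cells of DJ-1 KO OVA, at 99.1 and 99.8 CPM in those of WT OVA and at 120 CPM in AT2 cells of WT PBS. It was thus low in the library labelled as knockout but not at 0. CPM is the UMIs of a gene over all UMIs of the summed cells, scaled to 1000000. Brackets after a level hold an exact 95% Poisson interval, after a ratio of levels an exact conditional binomial interval and after a share a Clopper-Pearson interval, and all cover counting error only. The reads come from the 3′ ends of transcripts and are not divided by transcript length.

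AT2 cells made up 292 of the kept DJ-1 KO OVA cells, 780 of the WT OVA cells and 306 of the WT PBS cells, or 6.69%, 13.2% and 7.97%. They were split by Retnla, the gene of a secreted resistin-like protein that type 2 cytokines are known to induce, at 1% of a cell's UMIs. Retnla-high cells were 195 of 292 AT2 cells in DJ-1 KO OVA (66.8%, 61.1 to 72.2%) and 43 of 780 in WT OVA (5.51%, 4.02 to 7.35%). In WT PBS there were 0 of 306 (0%, 0 to 1.20%). Near the limit, 15 DJ-1 KO OVA and 27 WT OVA cells held 0.5 to 1% Retnla, and 42 and 20 cells held 1 to 2%. Cluster 15 held 194 of the Retnla-high cells of DJ-1 KO OVA and 42 of those of WT OVA, while cluster 5 held 60 of the 97 Retnla-low cells of DJ-1 KO OVA, 671 of 737 of WT OVA and 301 of 306 of WT PBS. Of the cells kept from shared barcodes, 72 fell among the Retnla-high and 6 among the Retnla-low AT2 cells of DJ-1 KO OVA, and 5 among the AT2 cells of WT PBS.

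The 16 AT2 markers, all outside the 10 genes, also served to name the clusters, so they describe the cells and do not test the name. Having UMIs does not set AT2 cells apart, since CD4 T cells of each library also had UMIs of all but Dlk1, at lower levels. In each of the 5 sets of AT2 cells, 15 of the 16 markers had UMIs and only Dlk1 was at 0. Their summed level was 35510 CPM in Retnla-high and 34900 CPM in Retnla-low AT2 cells of DJ-1 KO OVA, 40500 and 37730 CPM in WT OVA and 47220 CPM in WT PBS. Without Lyz2, which macrophages also express and which stood at 8165, 9481, 11990, 14390 and 23310 CPM in the same order, the sums were 27340 and 25420 CPM in DJ-1 KO OVA, 28510 and 23350 CPM in WT OVA and 23910 CPM in WT PBS. Summed club markers stood between 3498 and 4071 CPM in the 5 sets and alveolar macrophage markers between 481 and 688 CPM. Summed goblet markers were at 51.0 and 46.7 CPM in DJ-1 KO OVA, 40.1 and 42.2 CPM in WT OVA and 11.2 CPM in WT PBS. Immediate early genes, which dissociation can induce, had sums of 10400 and 13990 CPM in DJ-1 KO OVA, 14030 and 14250 CPM in WT OVA and 8839 CPM in WT PBS. The part of these values in the differences below was not tested.

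In the mm10 (GRCm38) mouse genome the 10 genes lie on 8 chromosomes. Sftpa1 (ENSMUSG00000021789, chr14:41131788-41136373) and Sftpd (ENSMUSG00000021795, chr14:41172212-41185198) are neighbours on chromosome 14, 35838 bases apart with 2 annotated genes, Gm7920 and Mbl1, between them. Sftpc (ENSMUSG00000022097, chr14:70520941-70524081) lies farther along the same chromosome. Sftpb (ENSMUSG00000056370) lies at chr6:72304610-72314373 and Napsa (ENSMUSG00000002204) at chr7:44572445-44586846. Abca3 (ENSMUSG00000024130) lies at chr17:24351921-24410204, Lamp3 (ENSMUSG00000041247) at chr16:19653381-19706365 and Slc34a2 (ENSMUSG00000029188) at chr5:53049353-53071664. The lipid enzymes Lpcat1 (ENSMUSG00000021608) and Scd1 (ENSMUSG00000037071) lie at chr13:73467231-73516420 and chr19:44394450-44407709.

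Together the 10 genes gave 14.7% of all UMIs of Retnla-high and 16.1% of Retnla-low AT2 cells of DJ-1 KO OVA, against 17.6% and 18.3% for WT OVA and 22.7% for WT PBS. Most of that is Sftpc, which alone stood at 85660 CPM (85260 to 86070) in Retnla-high and 94720 CPM (93970 to 95480) in Retnla-low AT2 cells of DJ-1 KO OVA. In WT OVA it stood at 117600 CPM (116500 to 118600) in Retnla-high and 122900 CPM (122600 to 123200) in Retnla-low cells, and in WT PBS at 165700 CPM (165300 to 166100). Sftpc was thus lowest in DJ-1 KO OVA, between in WT OVA and highest in WT PBS. The 5 intervals do not overlap, but they cover counting error only. In WT OVA the median cell held Sftpc at 124200 CPM in both subsets. The log2 ratio of Retnla-high to Retnla-low cells there lay between -0.10 and 0.09 under alternatives. Sftpb, the partner of Sftpc, stood at 7078 and 9207 CPM in Retnla-high and Retnla-low cells of DJ-1 KO OVA, at 8852 and 11040 CPM in those of WT OVA and at 11890 CPM in WT PBS. Napsa, the protease, was at 1306 and 1329 CPM in DJ-1 KO OVA, 1468 and 1668 CPM in WT OVA and 2174 CPM in WT PBS. All 3 were lowest in Retnla-high cells of DJ-1 KO OVA and highest in WT PBS, although the Napsa intervals of the 2 DJ-1 KO OVA sets overlap (1257 to 1357 and 1242 to 1422 CPM).

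The collectins followed another order. In DJ-1 KO OVA, Sftpa1 stood at 21040 CPM (20840 to 21240) in Retnla-high and at 16360 CPM (16050 to 16670) in Retnla-low AT2 cells. In WT OVA it stood at 23480 CPM (23020 to 23950) and 17400 CPM (17290 to 17520), and in WT PBS at 22860 CPM (22710 to 23000). Sftpa1 was thus higher in the Retnla-high cells of each challenged library, where WT OVA lay just above WT PBS. Sftpd stood at 6852 CPM (6737 to 6967) in Retnla-high and 5027 CPM (4855 to 5203) in Retnla-low cells of DJ-1 KO OVA. In WT OVA it stood at 4329 CPM (4133 to 4532) and 3345 CPM (3295 to 3395), and in WT PBS at 4202 CPM (4140 to 4265). Sftpd was also higher in Retnla-high cells and was highest in DJ-1 KO OVA, while its intervals in Retnla-high WT OVA cells and in WT PBS overlap.

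Among genes of the lamellar body and of lipid supply, Abca3 stood at 622 and 887 CPM in Retnla-high and Retnla-low AT2 cells of DJ-1 KO OVA, at 798 and 1038 CPM in WT OVA and at 1201 CPM in WT PBS. Lpcat1, the enzyme of disaturated phosphatidylcholine, stood at 740 and 1354 CPM in DJ-1 KO OVA, 904 and 1484 CPM in WT OVA and 1725 CPM in WT PBS. Both had the order seen for Sftpb, with Retnla-high cells lowest. Lamp3, the membrane glycoprotein, varied least, at 2357 and 2578 CPM in DJ-1 KO OVA, 1988 and 2093 CPM in WT OVA and 2060 CPM in WT PBS. The phosphate transporter Slc34a2 was at 8038 and 9823 CPM in DJ-1 KO OVA, 7440 and 8449 CPM in WT OVA and 6865 CPM in WT PBS. The desaturase Scd1 was at 12930 and 19380 CPM in DJ-1 KO OVA, 8932 and 13130 CPM in WT OVA and 8710 CPM in WT PBS. Scd1 and Slc34a2 were thus higher in both Retnla-low sets of challenged mice than in WT PBS, the opposite order to Sftpc. Each of the 10 genes had a UMI in at least 89.69% of the cells of every set, the lowest share being that of Abca3 and Napsa in Retnla-low DJ-1 KO OVA cells. Median depth was 10239 and 7033 UMIs in Retnla-high and Retnla-low cells of DJ-1 KO OVA, 9428 and 6820 UMIs in those of WT OVA and 13936 UMIs in WT PBS.

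**Figure D1:**
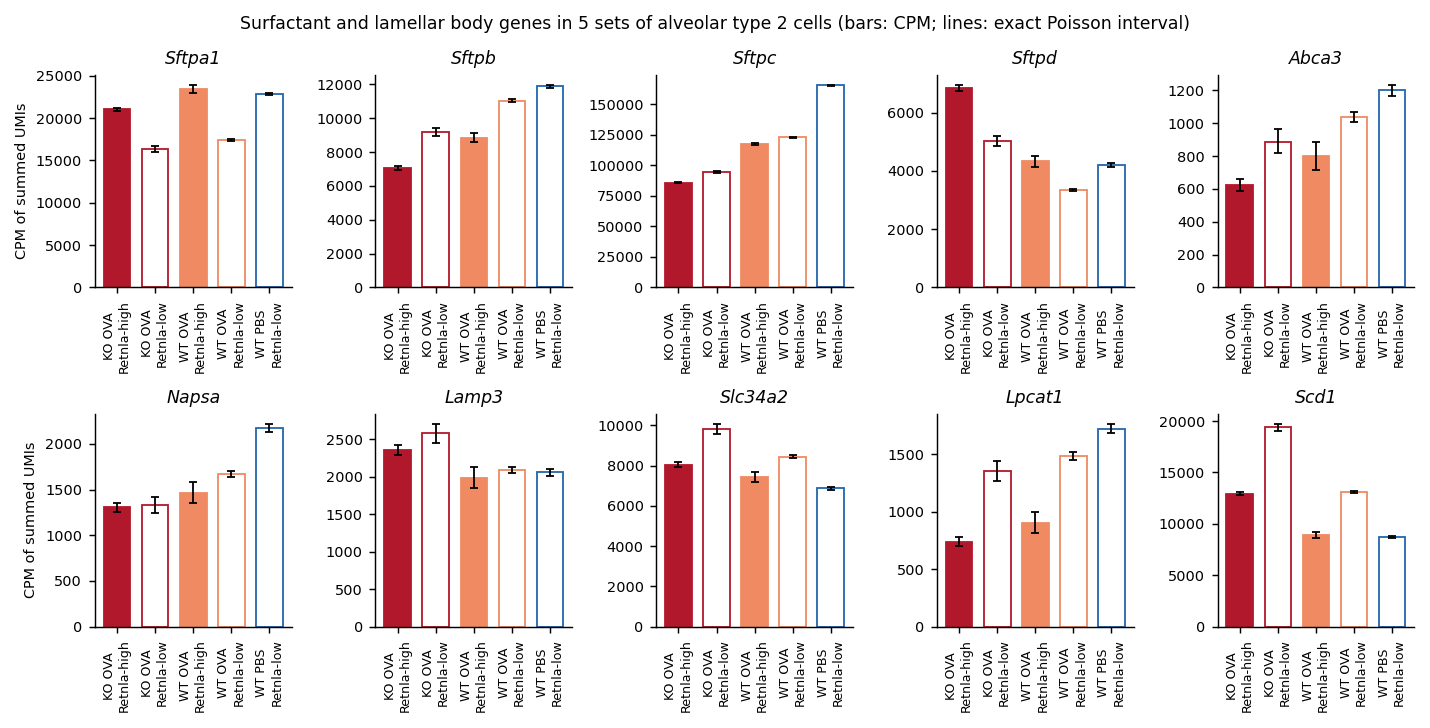
Levels of the 10 genes (bars, CPM of summed UMIs on linear axes from 0, with lines of 95% Poisson intervals) in Retnla-high and Retnla-low AT2 cells of DJ-1 KO OVA and WT OVA and in Retnla-low AT2 cells of WT PBS, 1 library per group. Sftpc lies at 85660 CPM in Retnla-high DJ-1 KO OVA cells and at 165700 CPM in WT PBS, whereas Sftpd is highest in Retnla-high DJ-1 KO OVA cells at 6852 CPM.

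The first question was how AT2 cells with at least 1% of their UMIs from Retnla differ from those with less, within each challenged library. In both libraries Lpcat1 was lower in Retnla-high cells by more than 1.5-fold, and the ratios of the other 9 genes lay within that fold. For Sftpa1 the ratio of Retnla-high to Retnla-low was 1.29 (1.26 to 1.31) in DJ-1 KO OVA cells and 1.35 (1.32 to 1.38) in WT OVA. For Sftpd it was 1.36 (1.31 to 1.42) in DJ-1 KO OVA cells and 1.29 (1.23 to 1.36) in WT OVA. The ratio of Lpcat1 was 0.546 (0.502 to 0.595) in DJ-1 KO OVA cells and 0.609 (0.548 to 0.675) in WT OVA. Scd1 stood at 0.667 (0.653 to 0.682) and 0.681 (0.658 to 0.703), Abca3 at 0.701 (0.635 to 0.776) and 0.769 (0.687 to 0.859), and Sftpb at 0.769 and 0.802. The other 4 ratios were nearer to 1, at 0.904 and 0.957 for Sftpc, 0.983 and 0.880 for Napsa, 0.914 and 0.949 for Lamp3 and 0.818 and 0.881 for Slc34a2.

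Past 1.5-fold, 1 of the 10 genes was lower and 0 were higher in each library. Over all genes with at least 20 UMIs, 12.2% of 8671 were that much lower in DJ-1 KO OVA and 18.4% of 9898 in WT OVA, and 12.4% and 11.6% were that much higher. The number of the 10 genes past this fold is therefore no larger than that among all genes, which include many with few UMIs. The median log2 ratio of the 10 was -0.22 in DJ-1 KO OVA, beside -0.05 for all genes, and -0.18 in WT OVA, beside -0.05. With both cells of every shared barcode left out, 123 Retnla-high and 91 Retnla-low cells of DJ-1 KO OVA gave log2 ratios of 0.34 for Sftpa1, 0.49 for Sftpd, -0.72 for Lpcat1 and -0.53 for Scd1. Lpcat1 stayed past the fold in 15 of 16 alternatives in each library. Its log2 ratios lay between -0.89 and -0.53 in DJ-1 KO OVA and between -0.84 and -0.31 in WT OVA. Some of these alternatives could not change the value. All 10 genes pass the minimum of 20 UMIs, so dropping it had no effect. Leaving out shared barcodes without clustering anew removed no WT OVA cell. Among cells of cluster 15 alone the log2 ratio of Sftpd was 0.13 in DJ-1 KO OVA cells and 0.01 in WT OVA, that of Sftpa1 0.24 and 0.30, and that of Lpcat1 in WT OVA -0.31. Within that cluster Scd1 had a log2 ratio of -0.67 in DJ-1 KO OVA cells and -0.12 in WT OVA. The differences in Sftpd thus lay mostly between clusters 15 and 5, and the cluster and the Retnla level cannot be told apart there.

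**Figure D2:**
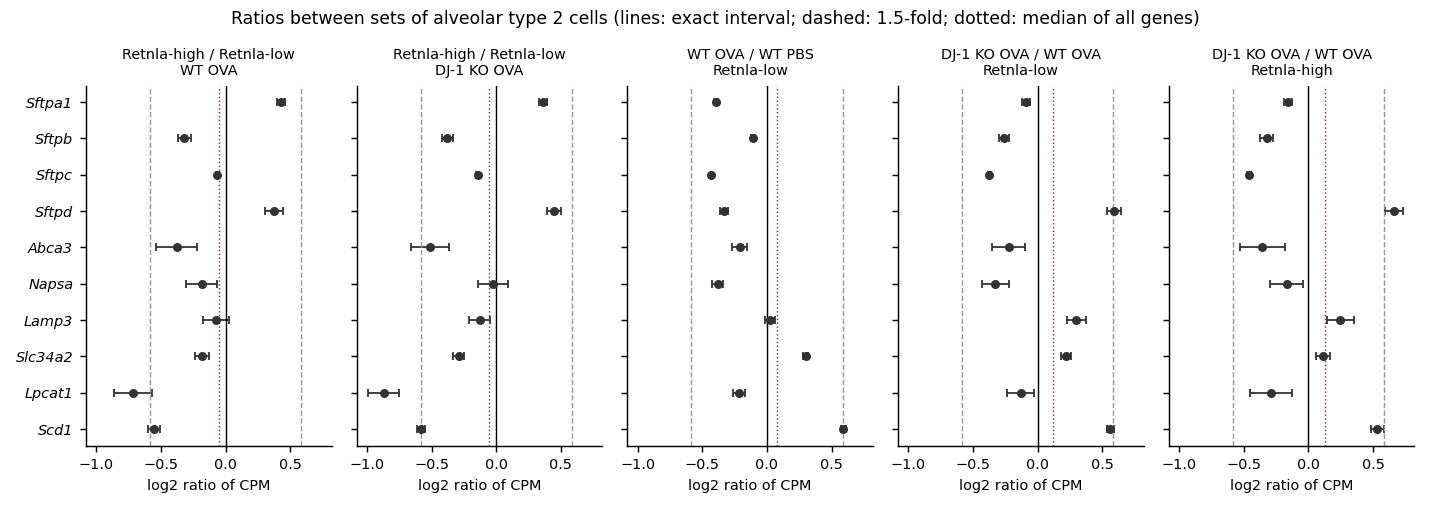
Points are log2 ratios of CPM for the 10 genes in 5 comparisons between sets of AT2 cells, with 95% intervals, a solid line at no difference, dashed lines at 1.5-fold and a dotted line at the median of all genes. Lpcat1 lies past 1.5-fold lower in Retnla-high cells of both challenged libraries, while Sftpd and Scd1 lie to the higher side where DJ-1 KO OVA is set over WT OVA.

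The split at 1% was also replaced by bins of the Retnla share, given here with no test. In DJ-1 KO OVA, Lpcat1 stood at 1308 CPM in the 23 AT2 cells with no Retnla UMI and at 613 CPM in the 83 cells with 5% or more. In WT OVA it stood at 1545 CPM in the 510 cells with none and at 742 CPM in the 8 cells with 5% or more. Sftpb likewise was at 10970 CPM with none and 6505 CPM at 5% or more in DJ-1 KO OVA, and at 11170 and 7667 CPM in WT OVA. Scd1 did not move steadily in DJ-1 KO OVA, where it stood at 19100 CPM with no Retnla UMI, 22800 CPM in the 28 cells between 0.1 and 0.5%, 17320 CPM in the 42 cells between 1 and 2% and 10850 CPM at 5% or more. In WT OVA Scd1 was at 12770 CPM with none and 5623 CPM at 5% or more. Sftpa1 went the other way, at 17430 and 21330 CPM in DJ-1 KO OVA and at 16950 and 30380 CPM in WT OVA, for cells with none and with 5% or more. Sftpd stood at 4569 CPM with none, 7216 CPM in the 70 cells at 2 to 5% and 6567 CPM at 5% or more in DJ-1 KO OVA, and at 3163 CPM with none and 5832 CPM at 5% or more in WT OVA. In WT OVA the bins at 2 to 5% and at 5% or more held 15 and 8 cells, and the values there rest on few cells.

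**Figure D3:**
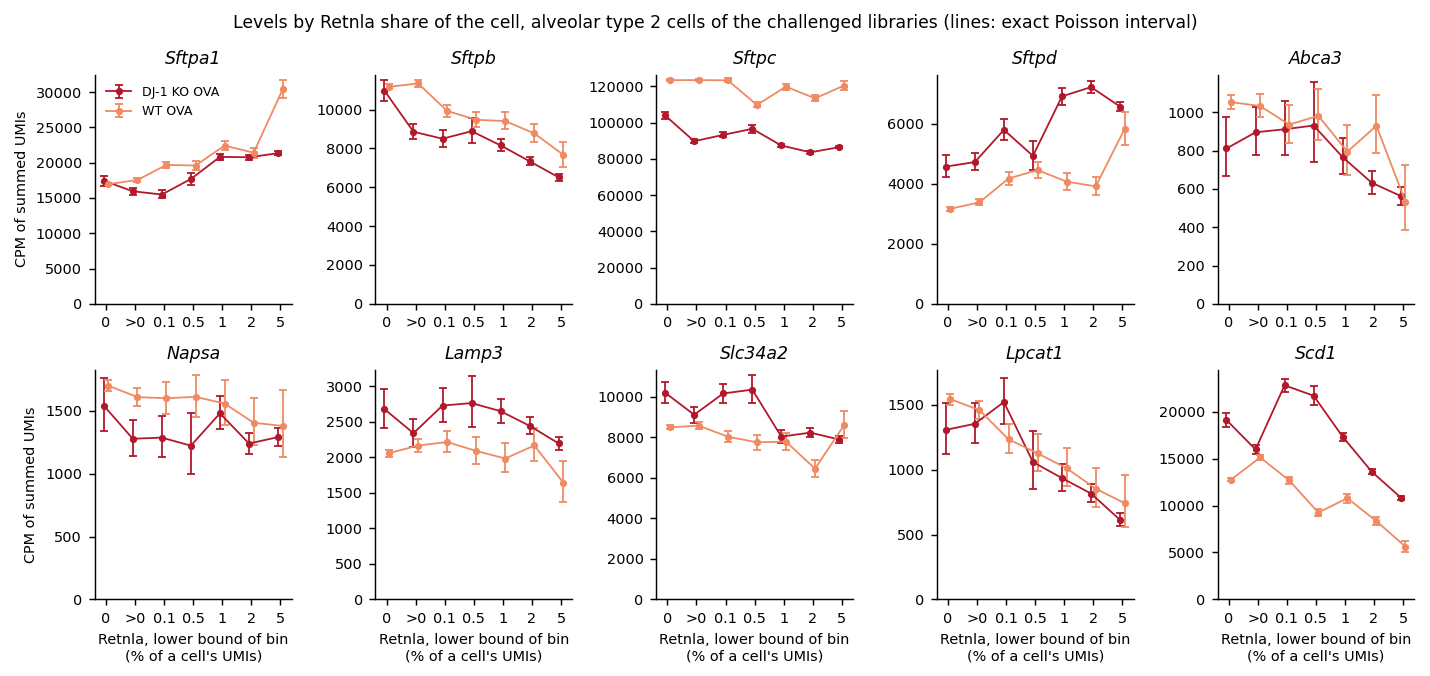
Levels of the 10 genes (CPM, with 95% Poisson intervals) in AT2 cells binned by the percent of a cell's UMIs that are Retnla, marked by the lower bound of each bin, with 1 line for DJ-1 KO OVA and 1 for WT OVA. Lpcat1 is lower at high Retnla in both challenged libraries (613 CPM at 5% or more in DJ-1 KO OVA and 742 CPM in WT OVA), and Sftpa1 is higher (21330 and 30380 CPM).

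The second question was how these genes differ with ovalbumin challenge in wild-type AT2 cells, for which Retnla-low cells of WT OVA were set against those of WT PBS. Scd1 was higher, at a ratio of 1.51 (1.49 to 1.53), and Slc34a2 was higher at 1.23 (1.21 to 1.25). Sftpc was lower at 0.742 (0.739 to 0.744), as were Sftpa1 at 0.762, Napsa at 0.767 and Sftpd at 0.796. Lpcat1 at 0.860, Abca3 at 0.864 and Sftpb at 0.929 were lower by less, and Lamp3 at 1.02 (0.988 to 1.05) had an interval that includes no difference. Past 1.5-fold, 1 of the 10 was higher and 0 were lower, beside 9.8% higher and 6.68% lower of 10741 genes. The median log2 ratio was -0.21 for the 10, against 0.08 for all genes. Scd1 was only just past the fold and fell short of it under 2 of 16 alternatives, with log2 ratios between 0.51 and 0.66. Dropping the minimum of UMIs, an alternative among these, could not change the value.

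The third question was how AT2 cells lacking DJ-1 differ from wild-type ones after the same challenge. Retnla-high and Retnla-low cells were compared separately, since their shares differ between the libraries. The split did not make Retnla itself equal between the libraries. In Retnla-high cells Retnla stood at 50060 CPM in DJ-1 KO OVA and 30900 CPM in WT OVA, and in Retnla-low cells at 1834 and 592 CPM. Cluster 15 held 37 of the 97 Retnla-low cells of DJ-1 KO OVA and 66 of the 737 of WT OVA. The part of the remaining Retnla difference in the ratios below was not tested. Sftpd was higher in DJ-1 KO OVA, at a ratio to WT OVA of 1.58 (1.51 to 1.66) in Retnla-high and 1.5 (1.45 to 1.56) in Retnla-low cells. Scd1 was higher at 1.45 (1.4 to 1.5) and 1.48 (1.45 to 1.51), and Lamp3 at 1.19 (1.10 to 1.28) and 1.23 (1.17 to 1.30). Sftpc was lower at 0.729 (0.721 to 0.736) and 0.771 (0.765 to 0.777), as was Sftpb at 0.800 and 0.834. The collectins did not go together here, since Sftpa1 stood at 0.896 in Retnla-high and 0.940 in Retnla-low cells. Slc34a2 was at 1.08 and 1.16, Abca3 at 0.780 and 0.855, Napsa at 0.890 and 0.797 and Lpcat1 at 0.818 and 0.913.

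Past 1.5-fold, Sftpd was the 1 gene of the 10 that was higher in each subset and 0 were lower. Among all genes, 22% of 8411 were higher and 9.14% lower in Retnla-high cells, and 17.2% of 9971 were higher and 11.9% lower in Retnla-low cells. The median log2 ratio of the 10 was -0.16 in Retnla-high cells, beside 0.13 over all genes, and -0.11 in Retnla-low cells, beside 0.12. In Retnla-high cells Sftpd stayed past the fold in 16 of 16 alternatives, with log2 ratios between 0.59 and 0.73. In Retnla-low cells it did so in 10 of 17, with log2 ratios between 0.38 and 0.75, the lowest being among cells of cluster 5. Dropping the minimum of UMIs, an alternative in both subsets, could not change these values. With both cells of every shared barcode left out, the log2 ratio in Retnla-high cells was 0.73 for Sftpd, 0.53 for Scd1 and -0.49 for Sftpc. WT OVA serves both this comparison and that with WT PBS. With a single library per genotype, genotype and library cannot be told apart.

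Cells of a set varied around these sums. Sftpc had a 10th percentile of 53550 CPM, a median of 87320 CPM and a 90th percentile of 115000 CPM per cell in Retnla-high cells of DJ-1 KO OVA. In Retnla-low cells of DJ-1 KO OVA these were 21650, 96800 and 123000 CPM, so the low tail was longer there. In WT OVA they were 86400, 124200 and 148300 CPM in Retnla-high and 92970, 124200 and 149800 CPM in Retnla-low cells, and in WT PBS 124500, 167400 and 197000 CPM. Scd1 spread far more, with a 10th percentile of 3612 CPM and a 90th of 37330 CPM in Retnla-low DJ-1 KO OVA cells, 3463 and 26100 CPM in Retnla-low WT OVA cells and 2397 and 15860 CPM in WT PBS. For Sftpd the median cell stood at 6618 and 4069 CPM in Retnla-high and Retnla-low cells of DJ-1 KO OVA, 4284 and 3100 CPM in those of WT OVA and 3910 CPM in WT PBS.

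AT2 cells with Sftpc under 5% of their UMIs were 36 of 292 in DJ-1 KO OVA (12.3%, 8.79 to 16.7%). There were 17 of 780 in WT OVA (2.18%, 1.27 to 3.47%) and 8 among the 306 of WT PBS (2.61%, 1.13 to 5.09%). The limit was chosen after the spread was seen, and Sftpc itself chose these cells. Of the 36 DJ-1 KO OVA cells, 21 were Retnla-low, with a median of 1833 UMIs against 7505.5 UMIs in the other Retnla-low cells. The 15 others were Retnla-high, with a median of 10239 UMIs, so low depth did not go with low Sftpc in that subset. In these 36 cells Sftpb was at 3579 CPM, against 8012 CPM in the other AT2 cells of DJ-1 KO OVA, and Scd1 at 4810 against 15500 CPM. The collectins differed less there, with Sftpa1 at 19010 against 20000 CPM and Sftpd at 7122 against 6334 CPM. Split by Retnla, Sftpd was at 6536 against 4795 CPM in Retnla-low and at 7432 against 6800 CPM in Retnla-high cells. In the 17 low cells of WT OVA, by contrast, Sftpa1 was at 7479 against 18130 CPM and Sftpd at 2527 against 3443 CPM, and in the 8 of WT PBS Sftpa1 was at 4166 against 22950 CPM. The low cells of these libraries were shallower, with a median of 2239 against 6938 UMIs in WT OVA and of 1190.5 against 14203.5 UMIs in WT PBS, and the part of depth was not tested.

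Across AT2 cells with at least 5000 UMIs (247 in DJ-1 KO OVA, 641 in WT OVA and 268 in WT PBS), Pearson correlations of log2(CPM + 100) are given as a description. The cells of a library share its preparation, and depth still differs among them. Retnla-high and Retnla-low cells were pooled here. Retnla-high cells were 66.8% of all AT2 cells in DJ-1 KO OVA, 5.51% in WT OVA and 0% in WT PBS. The part of this mix in the correlations was not tested. Sftpb and Sftpc correlated at 0.777 in DJ-1 KO OVA, 0.554 in WT OVA and 0.464 in WT PBS. The neighbouring collectin genes Sftpa1 and Sftpd correlated at 0.617, 0.438 and 0.432 in the same order of libraries. Slc34a2 and Scd1 correlated at 0.603, 0.257 and 0.343, and Lpcat1 and Scd1 at 0.466, 0.249 and 0.360. Between collectins and lipid genes the values were lower, at -0.266, -0.250 and -0.119 for Sftpd with Scd1 and at -0.201, -0.128 and 0.135 for Sftpa1 with Abca3. Sftpa1 and Sftpb correlated at 0.016 in DJ-1 KO OVA cells and 0.075 in WT OVA but at 0.381 in WT PBS.

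Further genes of surfactant biology were taken from 6 lists. Of 34 genes of phosphatidylcholine and fatty acid synthesis, 28 had enough UMIs in the Retnla comparisons, where 0 were higher and 5 lower past 1.5-fold in Retnla-high cells of DJ-1 KO OVA and 0 were higher and 4 lower in those of WT OVA. Of all genes, 12.4% were higher and 12.2% lower in DJ-1 KO OVA and 11.6% and 18.4% in WT OVA, and these shares are also those to set beside the other lists in the Retnla comparisons. Their median log2 ratios were -0.35 and -0.25, beside -0.05 for all genes in both. Elovl1, which elongates saturated fatty acids, was at 577 CPM in Retnla-high and 1007 CPM in Retnla-low cells of DJ-1 KO OVA and at 564 and 967 CPM in those of WT OVA, ratios of 0.573 and 0.584 (0.511 to 0.665). Acsl4, an acyl-CoA synthetase for polyunsaturated fatty acids, had the opposite sign at 1.16 and 1.41. For WT OVA over WT PBS in Retnla-low cells 3 of 28 were higher and 0 lower, beside 9.8% and 6.68% of all genes, with a median of 0.14 beside 0.08 for all genes. Scd2, another desaturase, had a ratio of 1.57 and Elovl1 of 0.674. Set over WT OVA, DJ-1 KO OVA had 5 of 26 higher and 3 lower in Retnla-high cells, and 5 of 28 higher and 1 lower in Retnla-low cells, with medians of -0.12 beside 0.13 and of 0.06 beside 0.12. The shares of all genes there were 22% higher and 9.14% lower in Retnla-high cells and 17.2% and 11.9% in Retnla-low cells. Acsl4 in Retnla-low cells stood at 1326 CPM in DJ-1 KO OVA and 741 CPM in WT OVA, a ratio of 1.79.

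Of 16 genes of sterol and fatty acid control, 0 of 14 were higher and 1 lower in Retnla-high over Retnla-low cells of DJ-1 KO OVA, and 1 of 15 was higher and 4 lower in WT OVA, with medians of -0.28 and -0.43 beside -0.05 for all genes. Hmgcs1, an early enzyme of cholesterol synthesis, had a ratio of 0.595 in WT OVA, and Insig1, which restrains the sterol-sensing pathway and is itself one of its targets, had 0.555. For WT OVA over WT PBS 2 of 15 were higher and 1 lower, beside 9.8% and 6.68% of all genes, with a median of 0.26 beside 0.08. Insig1 stood at 425 CPM in WT OVA and 235 CPM in WT PBS, a ratio of 1.81, and Idi1 had a ratio of 1.80. With DJ-1 KO OVA relative to WT OVA, 1 of 14 was higher and 0 lower in Retnla-high cells, beside 22% and 9.14% of all genes. The medians were 0.16 beside 0.13 for all genes in Retnla-high cells and 0.01 beside 0.12 in Retnla-low cells. In Retnla-low cells 0 of 15 were higher and 1 lower, beside 17.2% and 11.9% of all genes. The lower gene was Insig1, at 243 CPM in DJ-1 KO OVA and 425 CPM in WT OVA, although Scd1 itself was higher in those DJ-1 KO OVA cells.

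Of 34 other genes of lamellar body proteins, processing and secretion, 1 of 30 was higher and 2 lower in Retnla-high over Retnla-low cells of DJ-1 KO OVA, and 1 of 32 higher and 4 lower in WT OVA, with medians of -0.16 and -0.20 beside -0.05 for all genes. For WT OVA over WT PBS 4 of 33 were higher and 1 lower, beside 9.8% and 6.68% of all genes, and the median of 0.08 equalled that of all genes. Rab38, a small GTPase of lysosome-related organelles, had a ratio of 2.27. Between the challenged genotypes, 3 of 30 were higher in DJ-1 KO OVA and 0 lower in Retnla-high cells, beside 22% and 9.14% of all genes. In Retnla-low cells 5 of 33 were higher and 0 lower, beside 17.2% and 11.9%, and the amino acid transporter Slc6a14 had a ratio of 1.91. The medians were 0.24 beside 0.13 for all genes and 0.08 beside 0.12. Of 18 transcription factors of AT2 cells, 17 were in the matrices. In Retnla-high over Retnla-low cells 0 were higher and 2 lower in each library, Gata6 (0.404) and Klf5 (0.656) in DJ-1 KO OVA and Tfcp2l1 (0.555) and Hopx (0.569) in WT OVA. When WT OVA was set over WT PBS 5 of 17 were higher and 1 lower, beside 9.8% and 6.68% of all genes and with a median of 0.29 beside 0.08, with Cebpb at 2.23, Foxa1 at 1.71 and Elf3 at 1.63, and Klf5 at 0.649. Relative to WT OVA, DJ-1 KO OVA had 0 of the 17 past the fold in either direction in Retnla-high cells, beside 22% and 9.14% of all genes. In Retnla-low cells 1 was higher (Gata6, at 1.55) and 2 were lower, beside 17.2% and 11.9% of all genes. The lower ones were Hopx at 0.281 and Cebpa, a regulator of surfactant genes, at 0.647, which stood at 0.682 in Retnla-high cells.

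A list of 20 genes known to respond to interleukin-13 was included beside Retnla. For WT OVA over WT PBS 8 of 11 with enough UMIs were higher and 2 lower, beside 9.8% and 6.68% of all genes. Retnla itself is among the 11, and it also chose the subsets. For Retnla-high over Retnla-low cells 3 of 7 were higher and 0 lower in DJ-1 KO OVA, and 4 of 10 higher and 2 lower in WT OVA, Retnla included, beside 12.4% and 12.2% of all genes in DJ-1 KO OVA and 11.6% and 18.4% in WT OVA. Chia1, a chitinase, had ratios of 5.39 and 9.51, and Slc26a4, an anion exchanger, had 4.17 and 8.81. Of those with enough UMIs, 6 of 7 were higher and 0 lower in Retnla-high cells of DJ-1 KO OVA relative to WT OVA, and 7 of 11 were higher and 1 lower in Retnla-low cells, Retnla again included. The shares of all genes were 22% higher and 9.14% lower in Retnla-high cells and 17.2% and 11.9% in Retnla-low cells. Chil3 is among the higher genes between libraries, but every set of AT2 cells held less of it than CD4 T cells of the same library. In DJ-1 KO OVA it stood at 132.6 and 165 CPM in Retnla-high and Retnla-low cells, against 430 CPM in CD4 T cells. In WT OVA it stood at 21.25 and 36.67 CPM, against 84.2 CPM. Chil3 is thus read as background. Chil4 was at 42.0 CPM in both subsets of DJ-1 KO OVA. The part of free RNA in these counts was not tested.

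Genes whose level over 67 sets of cells (each class in each library) was most like the mean of the 10 genes were Pla2g1b (Pearson r of 0.971), Sfta2 (0.970), Lgi3 (0.967), Npw (0.967), Irx1 (0.960) and Slc26a9 (0.945), among 3585 genes ranked. The sets share libraries and depth, and r is across sets of cells. Pla2g1b, a secreted phospholipase A2, stood at 104 and 128 CPM in Retnla-high and Retnla-low AT2 cells of DJ-1 KO OVA, 203 and 186 CPM in those of WT OVA and 194 CPM in WT PBS. Irx1, a homeobox factor, stood at 546 and 573 CPM in DJ-1 KO OVA, 328 and 450 CPM in WT OVA and 297 CPM in WT PBS. Lgi3 is also among the AT2 markers used to name the cells.

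Outside AT2 cells, CD4 T cells, which should lack surfactant transcripts, served to show the level of free RNA. Sftpc was found in 33.3% of CD4 T cells in DJ-1 KO OVA, 61.5% in WT OVA and 67.7% in WT PBS, at 250, 467 and 262 CPM and at median depths of 1490, 1926 and 4593 UMIs. The same cells held Sftpa1 at 75.1, 72.9 and 39.4 CPM, Sftpb at 30.9, 48.0 and 21.4 CPM and Scd1 at 49.2, 57.8 and 20.5 CPM. Values at or below these are read as background. Scd1 and Napsa stood above them in B cells, Scd1 at 2047 CPM in DJ-1 KO OVA, 1834 CPM in WT OVA and 1117 CPM in WT PBS, and Napsa at 291, 299 and 365 CPM. Napsa was also at 179, 407 and 474 CPM in classical monocytes, against at most 7.51 CPM in CD4 T cells. Lamp3 reached at most 74.6 CPM in any class outside AT2 cells, in alveolar type 1 cells of DJ-1 KO OVA.

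**Figure D4:**
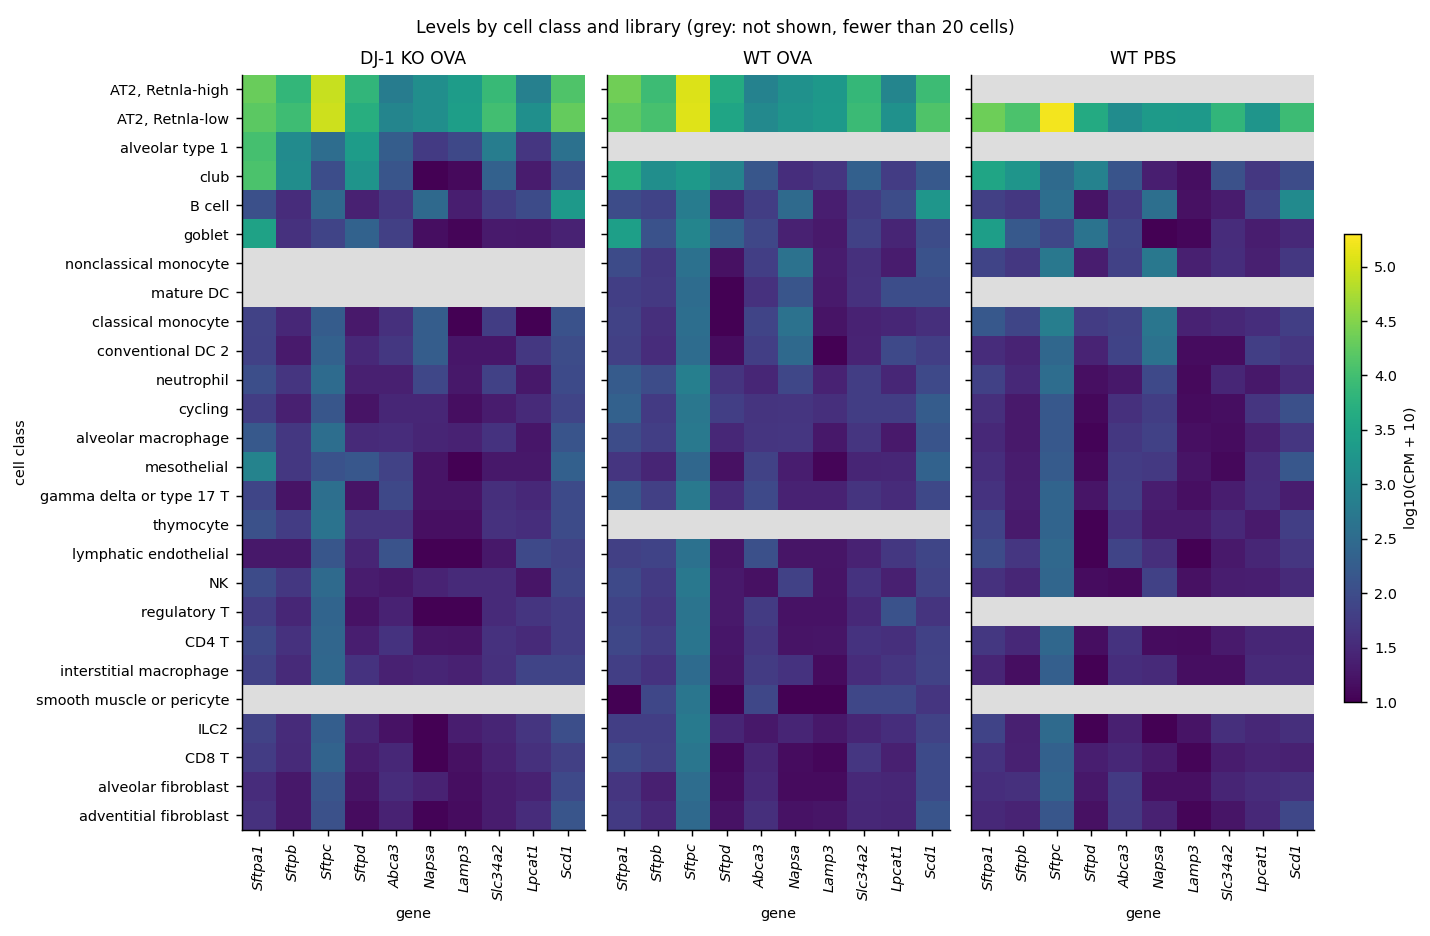
Heat map of the levels, as log10(CPM + 10), of the 10 genes (columns) in each cell class (rows), with panels for DJ-1 KO OVA, WT OVA and WT PBS and grey for classes not shown. AT2 cells carry all 10 genes, club cells carry Sftpa1, Sftpb and Sftpd, and B cells carry Scd1 (2047, 1834 and 1117 CPM) and Napsa.

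Club cells numbered 18 in DJ-1 KO OVA, 55 in WT OVA and 27 in WT PBS, with median depths of 20558, 21901 and 11278 UMIs. Barcodes shared between DJ-1 KO OVA and WT PBS were carried by 12 of these cells in each of those libraries. Sftpa1 stood at 12040 CPM in DJ-1 KO OVA, 4727 CPM in WT OVA and 3309 CPM in WT PBS, and Sftpd at 1695, 836 and 788 CPM. Sftpb was at 1282, 1341 and 1753 CPM. These 3 genes, which club cells are known to express, were far above the CD4 T level in every library. The DJ-1 KO OVA level of Sftpa1 was 2.55 (2.45 to 2.65) times that of WT OVA, that of Sftpd 2.03 (1.83 to 2.24) times and that of Sftpb 0.956 times. With both cells of every shared barcode left out and the rest clustered anew, there were 15, 63 and 16 club cells, and Sftpa1 then had a log2 ratio of -0.34 and Sftpd of 0.30. With the cells of shared barcodes left out of the classes as named, 6 DJ-1 KO OVA and 55 WT OVA club cells gave a log2 ratio of -1.43 for Sftpa1 and -1.05 for Sftpd. The higher Sftpa1 of DJ-1 KO OVA club cells was thus not seen in either way of leaving those cells out, and the higher Sftpd was not seen in the second, which has 6 cells. Summed club markers were at 388000, 524700 and 563900 CPM, goblet markers at 2108, 603 and 81.2 CPM, AT2 markers at 2762, 2185 and 1456 CPM and Retnla at 9.70%, 1.33% and 0.0231% of UMIs, and their part was not tested.

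Among AT2 genes in club cells of WT OVA, most UMIs of Sftpc, Lamp3 and Napsa came from 3 cells. Sftpc stood at 93.4 CPM in DJ-1 KO OVA, 2008 CPM in WT OVA and 298 CPM in WT PBS, but 3 cells held 92.4% of the WT OVA UMIs. The ratio of WT OVA over WT PBS was 6.74 (5.85 to 7.78), and without the 3 cells richest in Sftpc of each set its log2 was 0.28. Lamp3, with 1, 45 and 3 UMIs, likewise had 91.1% of its WT OVA UMIs in 3 cells. Napsa had 0, 33 and 9 UMIs, with 90.9% of those of WT OVA in 3 cells. Abca3 was spread more evenly, at 131 CPM in WT OVA with a UMI in 76.4% of cells and 23.1% of its UMIs in 3 cells, against 38.7 CPM in CD4 T cells. Lpcat1 was at 11.3, 48.3 and 39.2 CPM. For WT OVA over WT PBS 5 of the 10 genes were higher past 1.5-fold, namely Sftpc, Napsa, Lamp3, Slc34a2 and Scd1, and 0 were lower, beside 18% and 12.6% of 5850 genes. With both cells of every shared barcode left out, 0 were higher and 8 lower, with log2 ratios of -1.06 for Sftpc, -1.03 for Napsa, -1.37 for Slc34a2 and -1.21 for Scd1, and the median of the 10 was -0.95 in place of 0.61. Relative to WT OVA, 2 were higher in DJ-1 KO OVA (Sftpa1 and Sftpd) and 5 lower (Sftpc, Napsa, Lamp3, Lpcat1 and Scd1), beside 25.1% and 15% of 5201 genes. With both cells of every shared barcode left out, 3 were higher and 3 lower, and the log2 ratio was 0.99 for Napsa, 0.40 for Lamp3 and 1.97 for Scd1, each of the opposite sign. In the main setting Sftpc, Napsa, Lamp3 and Lpcat1 lay below the CD4 T level in DJ-1 KO OVA club cells, which is read as background.

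In goblet cells Sftpa1 was at 3025, 2667 and 2537 CPM in DJ-1 KO OVA (72 cells, 50 with shared barcodes), WT OVA (57 cells) and WT PBS (23 cells, 19 with shared barcodes). Sftpd was at 214, 203 and 417 CPM and Sftpb at 31.4, 112 and 149 CPM, and Sftpa1 was the highest of the 10 genes in each library. Alveolar type 1 cells of DJ-1 KO OVA, 21 cells with 12 from shared barcodes, held Sftpa1 at 10620 CPM and Sftpd at 2386 CPM, with 53.2% of the Sftpa1 UMIs in 3 cells and Retnla at 7.59% of all UMIs.

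**Figure D5:**
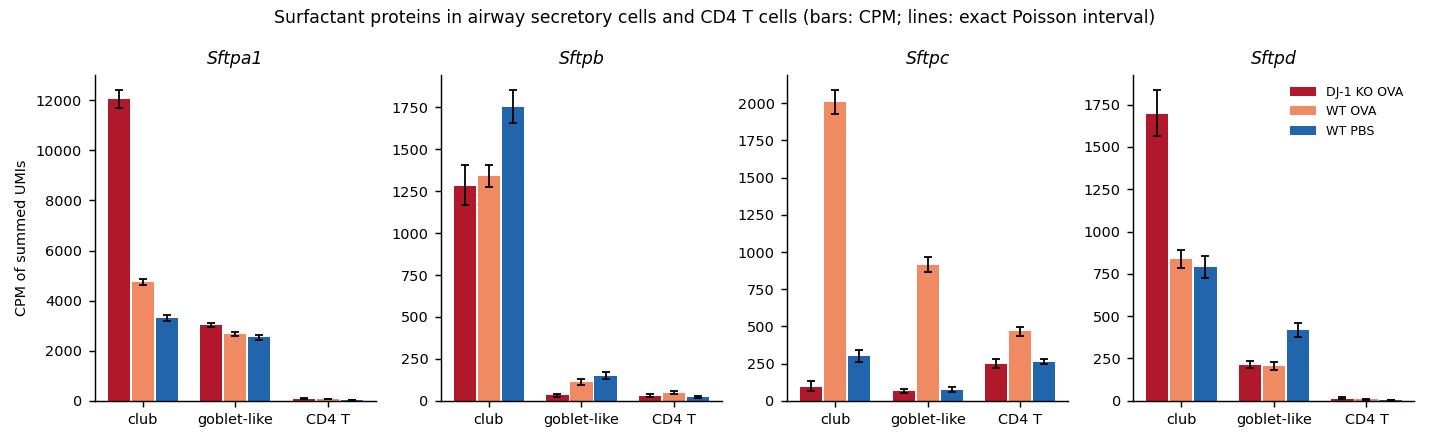
Levels of the 4 surfactant protein genes (bars, CPM on linear axes from 0, with lines of 95% Poisson intervals) in club, goblet and CD4 T cells of DJ-1 KO OVA, WT OVA and WT PBS. Club cells hold Sftpa1 at 12040, 4727 and 3309 CPM, far above CD4 T cells at 75.1, 72.9 and 39.4 CPM, and Sftpc stands out in WT OVA club cells at 2008 CPM, most of it from 3 cells.

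Alveolar macrophages numbered 222, 179 and 58 in DJ-1 KO OVA, WT OVA and WT PBS, of which 69, 0 and 9 carried shared barcodes. All 19 of their markers were detected in at least 10% of these cells when pooled over the libraries. Within DJ-1 KO OVA, the marker Fabp1 had only 11 UMIs over the 222 cells. Sftpc stood at 342 CPM in DJ-1 KO OVA, 544 CPM in WT OVA and 143 CPM in WT PBS, and Sftpa1 at 148, 91.5 and 21.2 CPM. Both lay within a factor of 2 of the CD4 T level of the same library. Scd1, at 119, 119 and 37.6 CPM, stood above CD4 T cells in each library, with a ratio of 3.18 (2.25 to 4.58) for WT OVA over WT PBS and of 0.995 between DJ-1 KO OVA and WT OVA. Napsa stood at 17.8, 37.9 and 57.9 CPM, above the CD4 T level, with a ratio of 0.655 (0.458 to 0.938) for WT OVA over WT PBS and 0.470 (0.311 to 0.701) where DJ-1 KO OVA is set over WT OVA. Past 1.5-fold, 7 of the 10 genes were higher and 2 lower for WT OVA over WT PBS, beside 9.74% and 15.7% of 8572 genes. Of the higher genes, Sftpa1, Sftpb, Sftpc, Sftpd and Slc34a2 lay below the CD4 T level in WT PBS. Lpcat1, 1 of the 2 lower, was at background in WT OVA and WT PBS, at 9.47 and 14.5 CPM against 27.4 and 19.2 CPM in CD4 T cells. Relative to WT OVA, 2 were higher in DJ-1 KO OVA and 2 lower, beside 12.2% and 18.4% of 9168 genes. Sftpc in CD4 T cells was at 467 CPM in WT OVA and 262 CPM in WT PBS, and the part of free RNA in the first count was not tested. In WT OVA macrophages 3 cells held 48.3% of the Sftpa1 UMIs, 55.9% of Sftpb, 43.2% of Sftpc, 59.0% of Sftpd, 50% of Slc34a2 and 70.6% of the 17 UMIs of Lamp3. Without the 3 cells richest in Sftpc of each set, 8 genes had enough UMIs, of which 5 were higher and 2 lower. After subtraction of the CD4 T level, 3 genes remained above 0 in both libraries (Napsa, Lamp3 and Scd1), with a median log2 ratio of -0.59, against 0.89 for the same 3 without subtraction. Of the 36 Lamp3 UMIs in DJ-1 KO OVA macrophages 83.3% lay in 3 cells. Interstitial macrophages (68, 53 and 30 cells) held Sftpc at 267, 307 and 194 CPM and Scd1 at 65.9, 60.6 and 22.1 CPM.

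Genes by which macrophages take up and turn over surfactant, a list of 27, were measured in the same alveolar macrophages. When WT OVA was set over WT PBS, 2 were higher and 3 lower past 1.5-fold, beside 9.74% and 15.7% of all genes. Bhlhe40, a transcription factor, stood at 742 CPM in WT OVA and 436 CPM in WT PBS, while the scavenger receptor Marco stood at 58.4 and 151 CPM. Relative to WT OVA, 2 of 27 were higher in DJ-1 KO OVA and 10 lower, beside the 12.2% and 18.4% of all genes and with a median log2 ratio of -0.42 beside -0.08 for all genes. Cd36, a fatty acid transporter and scavenger receptor, was higher at 605 CPM in DJ-1 KO OVA and 308 CPM in WT OVA, a ratio of 1.97 (1.78 to 2.17). Lower were Abca1, a cholesterol exporter, at 26.7 and 97.3 CPM, Tlr2 at 199 and 708 CPM and Marco at 16.4 and 58.4 CPM. Summed macrophage markers were at 102700, 61330 and 26750 CPM in DJ-1 KO OVA, WT OVA and WT PBS, of which Chil3 made up 91270, 48930 and 12770 CPM, and without it the sums were 11400, 12400 and 13980 CPM. These near-equal sums hide single markers that went opposite ways, here in the same order of libraries. Fabp1 stood at 4.89, 154 and 524.5 CPM, Ear1 at 24.5, 442 and 787 CPM and Siglecf at 26.7, 113 and 165 CPM. Ctsk, by contrast, stood at 1940, 960 and 295 CPM and Car4 at 1047, 691 and 230 CPM. AT2 markers summed to 4491, 9269 and 13760 CPM, and to 231, 192 and 112 CPM without Lyz2 and Cd74, which macrophages also express. The part of these values in the differences was not tested.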

How the data were processed

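The labels' protocols give the Chromium Single Cell 3′ v3 chemistry. Each deposited matrix holds unnormalized UMI counts, written by software version 3.1.0 per the file headers, after Cell Ranger and STAR on mm10 per the submitters' processing notes. For the WT PBS library the treatment label was followed, although its title speaks of ovalbumin. The 10 genes and all lists were chosen with earlier results of these data known.

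A cell was kept if it had 200 or more genes and no more than 20% of its UMIs from mitochondrial genes. Doublets were removed at a Scrublet score of 0.25 (expected rate 0.06), which took 78, 162 and 76 cells of DJ-1 KO OVA, WT OVA and WT PBS. The automatic limit, an alternative, took 3, 162 and 57. Cells were clustered in scanpy 1.11.5 without integration and without the 10 genes (2000 variable genes, 30 components, 15 neighbours, Leiden resolution 1, close calls split at 0.3), and clusters were named from 35 marker lists. Classes needed at least 20 cells, and club, alveolar type 1 and ciliated cells at least 10. Further software was SciPy 1.17.1 on Python 3.11.15, with pandas 2.3.3, NumPy 2.4.6, igraph 0.11.9, scikit-learn 1.9.0 and matplotlib 3.10.9. Coordinates come from the RefSeq table of GRCm38.

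UMIs were summed per class and library, scaled to CPM and compared as ratios where both sets together held at least 20 UMIs. The fold limit was 1.5 and a count of 0 was floored at 3 UMIs, so that a gene at 0 was called only where its bound passed the fold. The ratio step was tested on simulated Poisson counts, for which the intervals are exact. That test checks the calculation only and cannot show how well the intervals cover variation between cells or mice. Named genes were the 10, Retnla, Park7, markers, up to 3 highest and 3 lowest of each list and the 6 most like the 10 genes. Immediate early genes and macrophage list ratios were added later. B cells and T cells had been planned as background, but B cells carry Scd1 and Napsa, so CD4 T cells were used. Choices varied were the filters, doublet limit, clustering, scaling, cell weights, thinning to 1000 UMIs, the minimum of UMIs, the Retnla limit and shared barcodes. Limits to single clusters, subtraction of the CD4 T level removal of the 3 cells richest in Sftpc in club cells and macrophages, and removal of shared barcodes without clustering anew were chosen after seeing the data.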

Additional observations from a re-analysis of the deposited data

Results flagged for a closer look

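Among 10 genes and 3 kinds of cell, 2 genes had ratios past 1.5-fold in opposite directions in club cells and alveolar macrophages, and in both cases the difference between the cell types was not tested, since each group is 1 library. Napsa had a ratio of 2.14 for WT OVA over WT PBS in club cells, from 33 and 9 UMIs, and of 0.655 in alveolar macrophages. In 3 club cells of WT OVA lay 90.9% of its UMIs, and with both cells of every shared barcode left out its log2 ratio in club cells was -1.03. Lamp3 had a ratio of 1.79 for DJ-1 KO OVA relative to WT OVA in alveolar macrophages, from 36 and 17 UMIs with 83.3% and 70.6% of them in 3 cells, and of 0.0768 in club cells, from 1 and 45 UMIs, of which 91.1% in WT OVA lay in 3 cells. With both cells of every shared barcode left out, its log2 ratio was 0.08 in alveolar macrophages and 0.40 in club cells.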

How the results depend on the processing

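No paired analysis was possible because each group is 1 library. Of 143 median log2 ratios under alternatives, 111 moved by less than the limit set for them, 27 moved further and 5 reversed, and of 1379 values of single genes 1049, 296 and 34 did so. The values within the limit include some that could not move. Dropping the minimum of UMIs changes no gene that already passes it. Leaving out shared barcodes without clustering anew removes no WT OVA cell. A reversed value is one past 1.5-fold whose sign turned. A gene at 0 whose bound gave no direction has no value, and some medians rest on fewer than the 10 genes, as given. In AT2 cells some values within 1.5-fold turned sign too, such as Lpcat1 for DJ-1 KO OVA relative to WT OVA in Retnla-low cells, at 0.31 within cluster 15. The causes of these moves were not tested.

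For Retnla-high over Retnla-low cells of WT OVA the median was -0.03 within cluster 15. For DJ-1 KO OVA it was -0.12 with both cells of a shared barcode left out, clustered anew or not, -0.15 with Retnla out of the totals, -0.08 with size factors, -0.12 with cells weighted alike and -0.16 thinned. WT OVA over WT PBS in Retnla-low cells gave -0.29 with size factors and -0.27 with cells weighted alike. In Retnla-low cells DJ-1 KO OVA over WT OVA gave -0.29 with size factors, -0.21 with cells weighted alike and 0.16 within cluster 15, and in Retnla-high cells -0.04 thinned.

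In club cells WT OVA over WT PBS gave -0.95 with both cells of a pair out, -0.37 with them out without clustering anew, -0.43 with cells weighted alike, -0.06 thinned (5 genes) and 0.02 at Leiden resolution 2 (8 genes). DJ-1 KO OVA over WT OVA gave 0.16 with the lower-UMI cells kept, -0.69 with size factors, 0.07 with the automatic doublet limit or with the 10 genes used to cluster, 1.05 at resolution 2, 0.0 with cells weighted alike (9 genes), 0.24 thinned (4 genes), -1.63 pooled with goblet cells, 0.06 with the CD4 T level subtracted (6 genes) and 0.14 without the 3 cells richest in Sftpc (8 genes). Single genes for WT OVA over WT PBS reversed to -1.06 (Sftpc), -1.03 (Napsa), -1.37 (Slc34a2) and -1.21 (Scd1) with both cells out, -0.33 (Napsa), -1.46 (Slc34a2) and -0.88 (Scd1) with them out without clustering anew, -0.44 (Sftpc) and -0.11 (Scd1) at resolution 2, -1.58 (Napsa), -2.22 (Slc34a2) and -0.80 (Scd1) weighted alike, and -2.55 (Slc34a2) thinned. Between DJ-1 KO OVA and WT OVA they reversed to 0.07 (Lamp3) and 0.89 (Scd1) with lower-UMI cells kept, -0.34 (Sftpa1), 0.99 (Napsa), 0.40 (Lamp3) and 1.97 (Scd1) with both out, -1.43 (Sftpa1) and -1.05 (Sftpd) with them out without clustering anew, 0.78 (Scd1) with the automatic limit and with the 10 genes clustered, 2.30 (Napsa), 0.85 (Lamp3) and 1.61 (Scd1) at resolution 2, 0.05 (Scd1) weighted alike, -0.15 (Sftpd) pooled and 0.31 (Scd1) without the 3 cells.

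In alveolar macrophages WT OVA over WT PBS gave 1.18 thinned and -0.59 with the CD4 T level subtracted (3 genes each, at 1.93 and 0.89 otherwise), where Lamp3 reversed to -0.59, and Lpcat1 reversed to 0.36 with doublets kept. DJ-1 KO OVA over WT OVA gave -0.73 with doublets kept, where Sftpa1 reversed to -0.30, and 0.45 thinned (4 genes), where Sftpc reversed to 0.13, or 0.23 with the CD4 T level subtracted. The club cells of DJ-1 KO OVA numbered 18, or 6 without shared barcodes.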
